A study of Arabidopsis thaliana with 4 samples.

Results

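Of the genes that the authors listed as increased during callus formation in wild type but not in lbd16-2, 207 passed limits set for a smaller increase in lbd16-2. They were chosen by their levels, which behave as log2(normalised reads + 1). The level on day 4 minus day 0 was below 2 in lbd16-2 and above 3 in wild type. These limits are a 4-fold and an 8-fold increase of normalised reads plus 1. The ratio of normalised reads itself can pass 4 in lbd16-2, as for YUC7 at 5.13 and AN3 at 4.02. These 207 were 40% of the 518 wild-type-only genes that have a value in every library (522 rows in all, 4 of them without lbd16-2 values), and 9.52% of the 2175 genes with values in all 4 libraries. The tables name 2773 genes in all. Since the levels chose the genes, every fold and every genotype difference below is a description of 4 libraries and no test was made.

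The tissue was the first pair of leaves of Arabidopsis thaliana, cut from 12-day-old plants grown at 22 °C with a daily light period and then kept in the dark on callus inducing medium. The groups, with 1 library each, were lbd16-2 explants with callus on day 4, lbd16-2 explants on day 0, wild-type Col-0 explants with callus on day 4, and wild-type Col-0 explants on day 0. No difference therefore has a replicate check, and the intervals in parentheses, at 95%, cover counting error only. In bulk tissue, fewer cells of a type and less RNA per cell cannot be told apart.

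LBD16 encodes a LOB-domain transcription factor that auxin induces through auxin response factors, and it acts in the first steps of lateral root formation. Callus inducing medium contains auxin and cytokinin, and callus grown on it from leaves follows a root-primordium programme rather than a simple loss of leaf identity. Members of that programme include auxin synthesis enzymes, the PLETHORA and WOX transcription factors and other LBD genes.

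LBD16 itself was counted in all libraries and was in both lists, with 518 normalised reads in lbd16-2 on day 4, 34.3 in lbd16-2 on day 0, 981 in wild type on day 4 and 20.9 in wild type on day 0. Its reads in lbd16-2 do not check the label, because no source used here gives the part of the gene that the allele alters. A normalised read is a read divided by the library's size factor, which was 1.68 for lbd16-2 on day 4, 1.08 for lbd16-2 on day 0, 1.41 for wild type on day 4 and 1.43 for wild type on day 0. The total depth of the libraries is unknown, since the tables hold the increased genes only. Of 26 root primordium genes, 20 were in the lists, 19 of them in both. None of the 4 photosynthesis genes or the 7 stomatal genes looked for was in a list, as the lists leave out genes that did not increase, so the leaf label could not be checked against leaf markers.

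The median log2 fold of the 207 genes was 1.48 in lbd16-2, between -2.24 and 2.00, against 3.47 in wild type, between 3.00 and 6.03. The difference of the log2 folds, wild type minus lbd16-2, had a median of 2.33 and ran from 1.02 to 5.88, beside a median of 0.57 over all 2175 genes. Summed over the 207 genes, lbd16-2 had 46364 normalised reads on day 4 and 20875 on day 0, against 89286 on day 4 and 6253 on day 0 in wild type. The summed level was thus lower in lbd16-2 on day 4 and higher in lbd16-2 on day 0. The limits cut through a continuum. The 3 members nearest the lbd16-2 limit, NRPB9A, GLYI4 and AT3G48660, had log2 folds of 1.99, 1.99 and 2.00 in lbd16-2, and the 3 nearest genes beyond it, AT5G56960, AT5G52547 and AT4G25790, had 2.02, 2.03 and 2.04. On the wild-type side the list itself ends at 3, and AT1G54840, AT1G29460 and TPK4 lay just inside it at 3.00, 3.01 and 3.01.

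**Figure D1:**
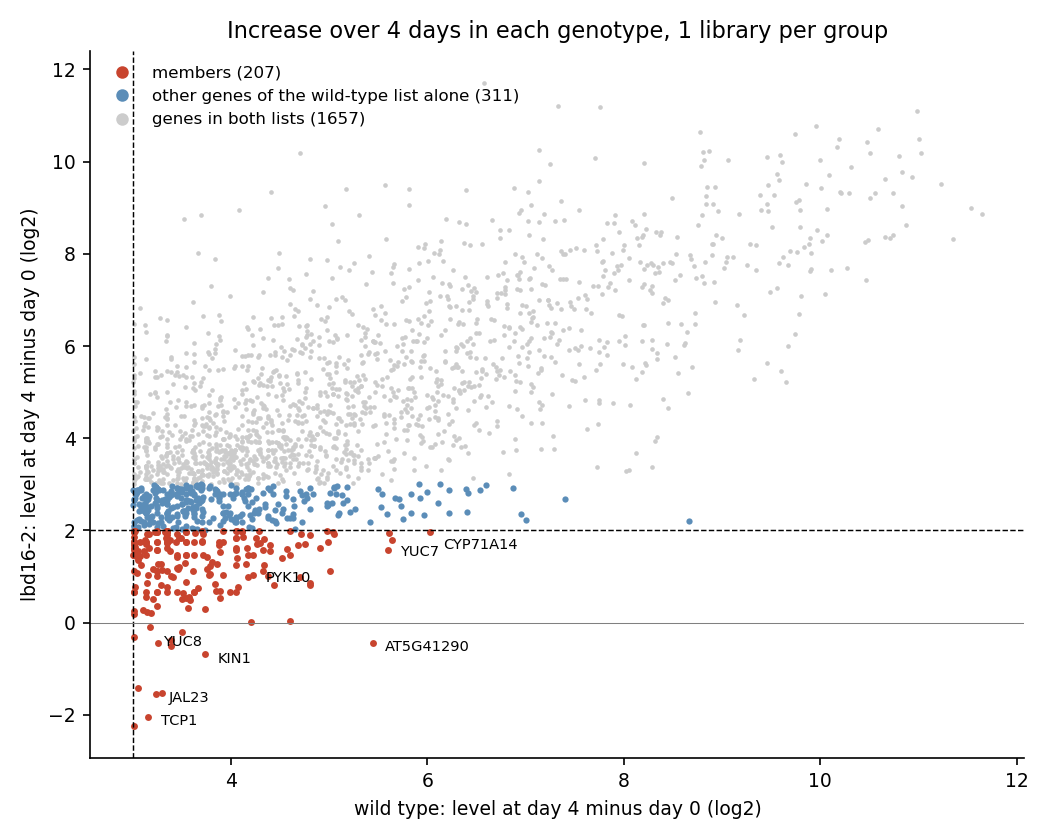
Each point is a gene, with its wild-type log2 level on day 4 minus day 0 on the horizontal axis and the same in lbd16-2 on the vertical axis, for the 207 members, the other 311 wild-type-only genes and the 1657 genes in both lists. Dashed lines mark the limits of 3 and 2, and the members fill the corner below and to the right of them, with TCP1, JAL23 and KIN1 below 0 in lbd16-2.

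Most of these genes had few reads. In wild type on day 4, 127 of the 207 were under 50 normalised reads (61.4%, beside 27.9% of all 2175 genes). In lbd16-2 on day 0, 55 had 0 reads (26.6%, beside 31.7%), and in wild type on day 0, 91 had 0 reads (44.0%, beside 30.9%). A count of 0 allows up to 3 reads, which is 2.78 normalised reads in lbd16-2 and 2.09 in wild type on day 0. The counting interval of the difference of log2 folds lay above 0 for 112 of the 207 genes (54.1%, beside 23.8% of all 2175). Among the 80 genes with at least 50 normalised reads in wild type on day 4 (38.6% of the members, beside 72.1% of all 2175), the interval lay above 0 for 77. The rule itself chose for that difference, so nothing is read from either count.

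**Figure D2:**
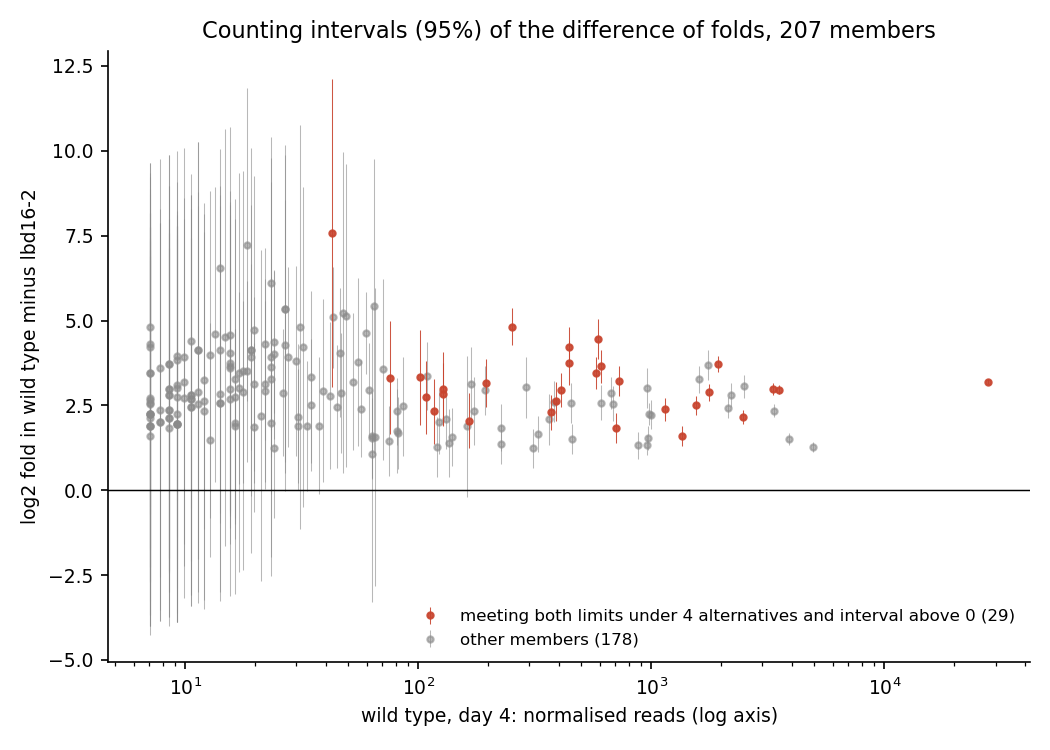
The difference of log2 folds, wild type minus lbd16-2, is plotted for each of the 207 members against its normalised reads in wild type on day 4 on a log axis, with bars for the 95% counting interval. Below 50 normalised reads many bars cross 0, and the 29 genes in red, 28 of them at 50 or more, met both limits under 4 other ways of computing the levels.

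In 29 of the 207 genes both limits still held, with the interval above 0, when the pseudocount was changed to 0.1 or to 5, when the libraries were centred on the genes in both lists, and when the reads were thinned to 1 depth. This combined count was added after the values were seen. It includes PYK10, PDF1, FAR1, LOX1, HAI2, KIN1, ACS4, NATA1, WAG1 and JAL23, which are described below by role.

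A smaller increase can come from a lower level on day 4 or a higher level on day 0, and the 2 days were compared separately. On day 4, 126 of the 207 genes were lower in lbd16-2 by over 1 on the log2 scale, a 2-fold difference (60.9%, beside 23.4% of all 2175), and 1, AT1G35880, was higher by that much (10.8% of all 2175). On day 0, 93 of the 207 were higher in lbd16-2 by over 1 (44.9%, beside 18.8%), and 3 were lower by that much, LUP5, AT1G27565 and AT2G13547 (8% of all 2175). Of the remaining wild-type-only genes, 28% were lower in lbd16-2 by over 1 on day 4 and 37.3% higher by over 1 on day 0. The median difference in level, lbd16-2 minus wild type, was -1.36 on day 4 (-0.17 over all 2175 genes) and 0.95 on day 0 (0.13 over all 2175). The rule chose these genes on the same values, so the shares describe how the members divide and are no evidence that they differ from other genes.

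The members divided by day as follows. In 32 genes (15.5%) lbd16-2 passed the 2-fold mark at both days, lower on day 4 and higher on day 0. It did so on day 4 only in 94 (45.4%), on day 0 only in 61 (29.5%) and at neither in 20 (9.66%). Of the 311 remaining wild-type-only genes, 5.14%, 22.8%, 32.2% and 39.9% fell in these classes, in that order. Among the 80 genes with at least 50 normalised reads in wild type on day 4, the counts were 20, 21, 32 and 7. Of the 80, 52 were over 2-fold higher in lbd16-2 on day 0 (65%, beside 18.8% of all 2175 genes). On day 4, 41 of the 80 were over 2-fold lower in lbd16-2 (51.2%, beside 23.4% of all 2175). The shares over all 2175 genes have no minimum of reads. In these 80 genes the median difference was -1.02 on day 4 and 1.23 on day 0.

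The day 0 libraries also stood apart for other genes. Over 376 genes in both lists whose mean on that day was 20 normalised reads or more, the median level was 0.47 higher in lbd16-2 on the log2 scale, and on day 4 it was -0.01 over 1536 such genes. After centring on these genes, 148 of the 207 stayed within both limits. The median day 0 difference of those 148, after centring, was 0.73. It is not a median over the 207, so it does not give the shift that centring brings to them. All 17 mitotic genes looked for were in the lists, none of them a member, and each was higher in lbd16-2 on day 0, by 0.27 for AUR3, whose direction turns after centring by 0.47, to 1.91 for CYCB2;1. Their part in the day 0 difference of the members was not tested.

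**Figure D3:**
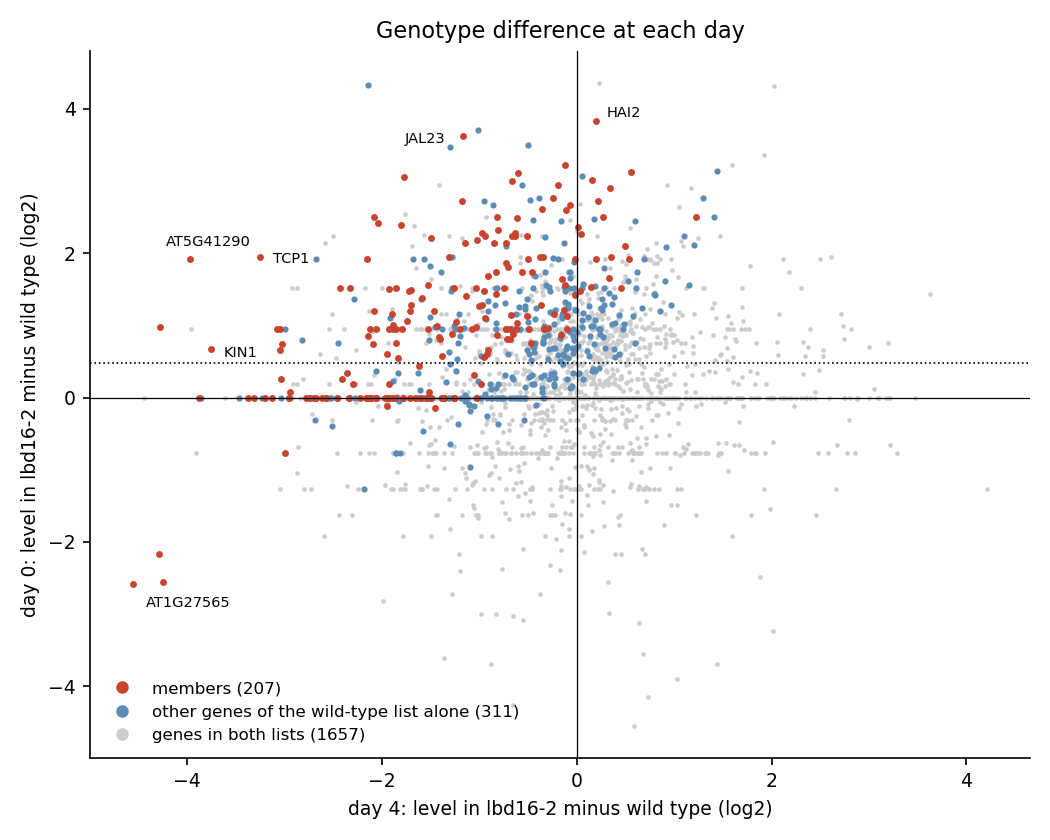
The horizontal axis gives the log2 level in lbd16-2 minus wild type on day 4 and the vertical axis the same on day 0, with 1 point per gene in the 3 groups of genes. The dotted line marks the day 0 median of 0.47 over the 376 genes in both lists with a mean of 20 normalised reads or more. Over all 1657 genes in both lists that median was 0. Members spread over the upper left, with HAI2 high on day 0 alone, KIN1 low on day 4 and AT1G27565 low in lbd16-2 at both days.

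PYK10 had the most reads of any member. It encodes the beta-glucosidase stored in the endoplasmic reticulum bodies of Arabidopsis roots and seedlings, which cleaves glucosides when a cell is broken and then clusters with jacalin-type lectins. In lbd16-2 it had 13647 normalised reads on day 4 and 6705 on day 0, and in wild type 27820 on day 4 and 1484 on day 0. The lbd16-2 libraries lay between the wild-type libraries at both days. The increase was 2.04-fold (1.98 to 2.09) in lbd16-2 and 18.7-fold (17.9 to 19.6) in wild type. On day 0 PYK10 was 4.52 times as high in lbd16-2 as in wild type (4.30 to 4.74), and on day 4 it was 0.491 times as high (0.483 to 0.499).

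JAL22 and JAL23, jacalin-related lectins whose genes lie on chromosome 2 with 1 protein-coding gene between them, were members too. JAL22 had 659 normalised reads on day 4 and 173 on day 0 in lbd16-2, against 2205 on day 4 and 83.0 on day 0 in wild type. JAL23 had 112 on day 4 and 327 on day 0 in lbd16-2, against 252 on day 4 and 25.8 on day 0 in wild type. JAL23 was thus lower on day 4 than on day 0 in lbd16-2, 0.341-fold (0.284 to 0.409), and higher on day 4 in wild type, 9.76-fold (6.94 to 14.1). On day 0 it stood 12.7 times as high in lbd16-2 as in wild type (9.03 to 18.3). Of 10 genes of the PYK10 complex and its bodies, a list drawn up after the values were seen, 3 were members, 3 were in both lists and 4 were in no list. On day 4 the 3 in both lists were in lbd16-2 at 0.208 times the wild-type level for BGLU21, 0.280 times for BGLU22 and 0.294 times for JAL33. These genes have close relatives, and PYK10 overlaps another annotated gene, so the split of reads among them is uncertain.

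The 250 bases before the annotated starts of JAL22 and JAL23 are shown because these neighbouring lectin genes share a role but differed on day 0 and in the direction of their change in lbd16-2. The sequences are from the RefSeq annotation of TAIR10.1, both on the minus strand and written 5′ to 3′ along the gene, at chr2:16416846-16417095 for JAL22 and chr2:16422159-16422408 for JAL23. Capitals mark letters of 4 motifs searched on both strands: TGTCTC, the auxin response element, TGTCGG, an auxin response factor site, GCGGCG, a LOB-domain site, and ACGTG, the core of abscisic acid response elements.
JAL22: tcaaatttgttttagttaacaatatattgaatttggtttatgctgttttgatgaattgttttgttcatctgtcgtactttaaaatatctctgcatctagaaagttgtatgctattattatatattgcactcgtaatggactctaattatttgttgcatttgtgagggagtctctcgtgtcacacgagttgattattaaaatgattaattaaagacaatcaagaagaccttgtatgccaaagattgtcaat
JAL23: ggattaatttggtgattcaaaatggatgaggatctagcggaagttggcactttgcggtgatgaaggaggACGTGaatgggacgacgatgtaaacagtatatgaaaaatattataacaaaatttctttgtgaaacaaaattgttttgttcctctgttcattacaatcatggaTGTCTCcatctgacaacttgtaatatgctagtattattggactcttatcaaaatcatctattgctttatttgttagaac
None of the 4 motifs is in the JAL22 window, and the JAL23 window holds 1 ACGTG and 1 TGTCTC.

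Over the 194 protein-coding members, the auxin and LOB-domain motifs were about as frequent as over all promoters of that length. TGTCTC was in 20 (10.3%, beside 10.9% of 27443 protein-coding genes), TGTCGG in 8 (4.12%, beside 4.16%) and GCGGCG in 3 (1.55%, beside 1.56%). ACGTG, a motif added after the values were seen, was in 62 of the 194 (32.0%, beside 22.9% of all promoters). It was about as frequent in the remaining wild-type-only genes, at 30.1%, and in the genes of both lists, at 29.0%. A match is a string of letters in the window and does not show that a factor binds there.

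Auxin synthesis was represented by YUC7, YUC8 and YUC9, which encode flavin monooxygenases of the last step from tryptophan to auxin. YUC8 had 25.0 normalised reads on day 4 and 26.9 on day 0 in lbd16-2, against 109 on day 4 and 11.2 on day 0 in wild type. YUC9 had 8.32 on day 4 and 5.57 on day 0 in lbd16-2, against 46.7 on day 4 and 4.19 on day 0 in wild type. The lbd16-2 levels of both genes lay close together at the 2 days, with folds of 0.928 (0.565 to 1.55) for YUC8 and 1.5 (0.540 to 4.75) for YUC9, while in wild type the folds were 9.76 (5.82 to 17.5) and 11.2 (4.86 to 31.5). YUC7 had 4.76 normalised reads on day 4 and 0.928, 1 read, on day 0 in lbd16-2, against 47.4 on day 4 and 0 on day 0 in wild type. Its wild-type increase was 22.6-fold against the floor of 3 reads in that library, with an exact lower limit of 17.9. Its lbd16-2 ratio of 5.13 has an interval from 0.687 to 228. On day 4 the lbd16-2 level was 0.10 times the wild-type level for YUC7 (0.0416 to 0.209), 0.229 times for YUC8 (0.159 to 0.324) and 0.178 times for YUC9 (0.0924 to 0.321). YUC7 overlaps another gene, and reads of the similar pair YUC8 and YUC9 may have been split between them.

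Of the 26 auxin synthesis and transport genes looked for, these 3 were members, 3 were in both lists and 20 were in no list. Of those in both lists, YUC3 was at 0.139 times and PIN2, the auxin exporter of root epidermis and cortex, at 0.235 times the wild-type level in lbd16-2 on day 4. WAG1, a protein kinase that acts on PIN proteins and was not in that list, had 80.3 normalised reads on day 4 and 32.5 on day 0 in lbd16-2, against 165 on day 4 and 16.0 on day 0 in wild type. The fold of WAG1 was 2.47 (1.69 to 3.70) in lbd16-2 and 10.3 (6.68 to 16.5) in wild type.

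Enzymes of other hormones and an oxylipin enzyme were among the members. ACS4, which makes the ethylene precursor and responds to auxin, had 291 normalised reads on day 4 and 146 on day 0 in lbd16-2, against 443 on day 4 and 16.0 on day 0 in wild type. GA3OX2, which makes active gibberellin, had 58.3 on day 4 and 49.2 on day 0 in lbd16-2, against 193 on day 4 and 20.9 on day 0 in wild type. LOX1, a lipoxygenase that oxidises fatty acids to oxylipins, had 477 on day 4 and 372 on day 0 in lbd16-2, against 1768 on day 4 and 186 on day 0 in wild type. In all 3 genes the lbd16-2 libraries lay between the wild-type libraries. The ACS4 difference was larger on day 0, where lbd16-2 was 9.08 times as high as wild type (5.84 to 14.7), than on day 4, where it was 0.658 times as high (0.583 to 0.741). For LOX1 the day 4 level was 0.270 times (0.249 to 0.292) and the day 0 level 2.00 times (1.71 to 2.35) that of wild type. Of 9 gibberellin genes, GA3OX2 was the member, 2 were elsewhere in the wild-type list alone, GA20OX2 and GA20OX3, 1 was in both lists, GA2OX6, 1 was in the lbd16-2 list alone, GA2OX2, and 4 were in no list. The day 4 log2 difference, lbd16-2 minus wild type, was -1.58 for GA20OX2, -1.59 for GA20OX3 and -0.07 for GA2OX6. GA20OX3 had few reads, 3.57 normalised reads in lbd16-2 and 12.7 in wild type on day 4.

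Of the surface-lipid and epidermal genes, PDF1 differed by over 2-fold between the genotypes on both days, FAR1 on day 4 and CER1 on day 0. PDF1, an extracellular protein of the outermost shoot cell layer, had 1027 normalised reads on day 4 and 715 on day 0 in lbd16-2, against 3343 on day 4 and 294 on day 0 in wild type. FAR1, a reductase that makes fatty alcohols of suberin, had 1017 on day 4 and 462 on day 0 in lbd16-2, against 2478 on day 4 and 251 on day 0 in wild type. CER1, an enzyme of wax alkane synthesis, had 3373 on day 4 and 1160 on day 0 in lbd16-2, against 3350 on day 4 and 226 on day 0 in wild type. On day 4 CER1 stood in lbd16-2 at 1.01 times its wild-type level (0.969 to 1.05), and its folds of 2.91 in lbd16-2 (2.73 to 3.09) and 14.8 in wild type (13.2 to 16.6) differed through day 0. FAR1 was the member among 20 endodermis and suberin genes. ASFT was elsewhere in the wild-type list alone, 9 were in both lists and 9 were in none, so most listed suberin genes increased in both genotypes. FAR4 and FAR5, close relatives of FAR1 in both lists, differed from wild type by -0.16 each on the log2 scale on day 4, and FAR1 by -1.28. FAR1 and LOX1 each overlap another gene.

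Genes of the dehydration and abscisic acid response differed on day 4, on day 0 or at both. KIN1, a small protein induced by cold and abscisic acid, had 42.8 normalised reads on day 4 and 69.6 on day 0 in lbd16-2, against 590 on day 4 and 43.3 on day 0 in wild type. On day 4 it was at 0.0725 times the wild-type level in lbd16-2 (0.0562 to 0.0924), while its day 0 ratio was 1.61 (1.13 to 2.29). HAI2, a protein phosphatase of the class that inhibits abscisic acid signalling, had 699 on day 4 and 399 on day 0 in lbd16-2, against 609 on day 4 and 27.2 on day 0 in wild type. HAI2 therefore differed mainly on the other day, with a day 0 level 14.7 times that of wild type (10.5 to 20.9) and a day 4 level 1.15 times (1.05 to 1.25). RCI2B, a small membrane protein of cold and salt response, had 816 on day 4 and 243 on day 0 in lbd16-2, against 1606 on day 4 and 49.5 on day 0 in wild type. TSPO, a membrane protein induced by abscisic acid, had 83.8 on day 4 and 40.8 on day 0 in lbd16-2, against 81.4 on day 4 and 7.67 on day 0 in wild type. LEA7, a late embryogenesis abundant protein, had 7.13 on day 4 and 5.57 on day 0 in lbd16-2, against 19.1 on day 4 and 0.698, 1 read, on day 0 in wild type. These genes were picked after their values were seen, and all 5 were higher in lbd16-2 on day 0. So were 149 of the 207 members (72.0%), 75.9% of the remaining wild-type-only genes and 52.5% of all 2175 genes. On day 4 KIN1, RCI2B and LEA7 were lower in lbd16-2 while HAI2 and TSPO were not. Reads of KIN1 may be shared with the similar gene KIN2.

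The windows of HAI2 and KIN1 are shown because these genes mark the ends of that range, the first differing mainly on day 0 and the second mainly on day 4. They are the 250 bases before each annotated start in TAIR10.1, from RefSeq, at chr1:2282829-2283078 on the minus strand for HAI2 and chr5:5209467-5209716 on the plus strand for KIN1, with the same motifs in capitals.
HAI2: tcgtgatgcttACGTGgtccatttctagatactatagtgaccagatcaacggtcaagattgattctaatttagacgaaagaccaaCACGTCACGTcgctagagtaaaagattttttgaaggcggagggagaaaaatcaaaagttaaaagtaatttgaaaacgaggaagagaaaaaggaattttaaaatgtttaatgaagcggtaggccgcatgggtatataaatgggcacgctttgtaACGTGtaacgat
KIN1: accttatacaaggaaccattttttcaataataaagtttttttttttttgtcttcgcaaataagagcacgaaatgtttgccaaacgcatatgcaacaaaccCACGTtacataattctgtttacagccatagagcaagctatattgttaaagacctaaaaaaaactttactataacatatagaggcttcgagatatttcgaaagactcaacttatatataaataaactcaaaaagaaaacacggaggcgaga
ACGTG occurs 4 times in the HAI2 window, on either strand, and once in that of KIN1, and the other 3 motifs are in neither.

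Across proteins of late embryogenesis, cold or heat protection, with metallothioneins counted among them, named by product, 10 were members, MT1B among them (4.83%, beside 2.25% of the remaining wild-type-only genes and 1.33% of the genes in both lists). Counted by product in the same way, terpenoid synthesis gave 4 members, LUP5, AT3G14530, AT4G20210 and AT3G32030 (1.93%, beside 0.643% and 0.181%), and these hold few reads. LUP5 had 2.38 normalised reads on day 4 and 0 on day 0 in lbd16-2, against 63.0 on day 4 and 4.88 on day 0 in wild type. AT3G14530 had 1.19 on day 4 and 0 on day 0 in lbd16-2, against 31.1 on day 4 and 0 on day 0 in wild type. Members of unknown function numbered 35 (16.9%, beside 13.5% and 12.2%), transcription regulators 23 (11.1%, beside 11.6% and 9.84%) and cell wall proteins 6 (2.90%, beside 2.89% and 5.91%). The 23 include AT1G65920, an RCC1 family protein with a FYVE zinc finger, whose product name gives no role in transcription. The classes were read from product names and were corrected after false matches were seen, so these shares have no test.

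**Figure D4:**
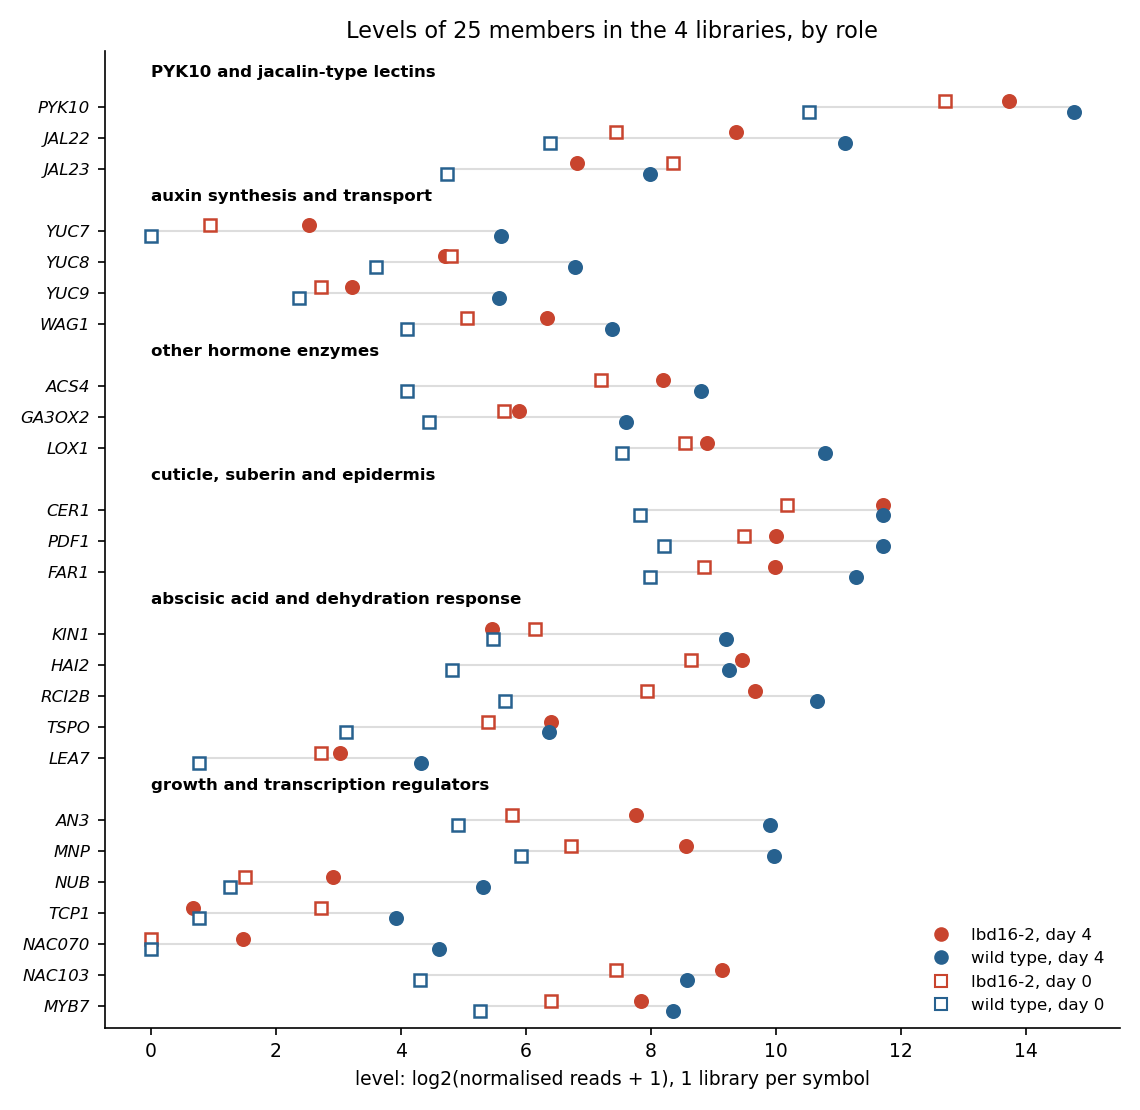
The log2 level, log2(normalised reads + 1), of 25 members in 6 roles is plotted by library, with red for lbd16-2 and blue for wild type, filled symbols for day 4 and open squares for day 0. For PYK10, ACS4 and LOX1 the lbd16-2 symbols sit between the wild-type symbols, and for CER1 and TSPO the day 4 symbols lie above each other at nearly the same level.

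Among transcription and growth regulators, AN3 and MNP were well counted and lower in lbd16-2 on day 4. AN3, a coactivator that promotes cell division in leaves, had 216 normalised reads on day 4 and 53.8 on day 0 in lbd16-2, against 955 on day 4 and 29.3 on day 0 in wild type. MNP, the GATA factor HANABA TARANU of meristem and organ boundaries, had 377 on day 4 and 105 on day 0 in lbd16-2, against 1000.5 on day 4 and 59.3 on day 0 in wild type. On day 4 the lbd16-2 level was 0.227 times that of wild type for AN3 (0.201 to 0.255) and 0.377 times for MNP (0.342 to 0.414). NUB, a zinc finger protein of organ growth, had 6.54 on day 4 and 1.86 on day 0 in lbd16-2, against 38.9 on day 4 and 1.40 on day 0 in wild type.

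Other regulators differed more on day 0. NAC103, a NAC factor of the unfolded protein response, had 562 normalised reads on day 4 and 173 on day 0 in lbd16-2, against 381 on day 4 and 18.8 on day 0 in wild type. Its lbd16-2 level was the higher at both days, 1.47 times on day 4 (1.33 to 1.64) and 9.16 times on day 0 (6.10 to 14.3). MYB7, a MYB repressor, had 228 on day 4 and 83.5 on day 0 in lbd16-2, against 325 on day 4 and 37.7 on day 0 in wild type. COL5, of the CONSTANS-like family, had 4037 on day 4 and 1037 on day 0 in lbd16-2, against 4963 on day 4 and 529.5 on day 0 in wild type, and was close to the limit in lbd16-2 at a log2 fold of 1.96.

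The root primordium list had a single member among the 207, NAC070, also called BRN2, which acts in root cap maturation. It had 1.78 normalised reads, 3 reads, on day 4 and 0 on day 0 in lbd16-2, against 23.3 on day 4 and 0 on day 0 in wild type. The wild-type increase was 11.2-fold against the floor of 3 reads, with an exact lower limit of 8.57. Its relatives of the root cap, BRN1, SMB and FEZ, were in both lists and lower in lbd16-2 on day 4, by log2 differences of -1.90, -0.95 and -1.97. None of 4 reported targets of LBD-class factors was a member, 3 of them being in both lists, and none of 19 cytokinin genes, 9 root hair genes, 18 shoot meristem genes, 12 nutrient uptake genes or 10 defence genes was.

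Several well-counted members have other roles. TPPJ, a trehalose phosphate phosphatase, had 675 normalised reads on day 4 and 207 on day 0 in lbd16-2, against 2508 on day 4 and 92.1 on day 0 in wild type. NATA1, an acetyltransferase that acetylates ornithine, had 126 on day 4 and 124 on day 0 in lbd16-2, against 442 on day 4 and 23.0 on day 0 in wild type. NLM1, an aquaporin-like channel, had 152 on day 4 and 122 on day 0 in lbd16-2, against 581 on day 4 and 42.6 on day 0 in wild type. The folds of NATA1 and NLM1 in lbd16-2 were 1.01 (0.813 to 1.27) and 1.24 (1.00 to 1.54), so their levels differed little between the days there, and in wild type they were 19.2 (13.5 to 28.1) and 13.6 (10.5 to 18.0).

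AT3G20370 and AT5G26280, named in the annotation only as TRAF-like family proteins, were both among the best counted. AT3G20370 had 2758 normalised reads on day 4 and 2375 on day 0 in lbd16-2, against 3539 on day 4 and 389 on day 0 in wild type. AT5G26280 had 681 on day 4 and 788 on day 0 in lbd16-2, against 1925 on day 4 and 170 on day 0 in wild type, so that its lbd16-2 level was lower on day 4 than on day 0. AT2G47780, a rubber elongation factor family protein whose gene neighbours TSPO, had 1107 on day 4 and 286 on day 0 in lbd16-2, against 1753 on day 4 and 34.9 on day 0 in wild type. Its wild-type log2 fold was 5.61 on the log2(normalised reads + 1) scale. CYP71A14, a cytochrome P450, had 13.7 on day 4 and 2.78 on day 0 in lbd16-2, against 64.4 on day 4 and 0 on day 0 in wild type. Its wild-type increase was 30.8-fold against the floor of 3 reads, with an exact lower limit of 24.5.

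In 13 members the lbd16-2 level was lower on day 4 than on day 0 (6.28%, beside 0.598% of all 2175 genes, where the 13 are the same genes by the limits of the list). Of these, JAL23, KIN1, YUC8 and AT5G26280 are described above. TCP1, a TCP factor related to the flower symmetry gene CYCLOIDEA of snapdragon, had 0.594 normalised reads, 1 read, on day 4 and 5.57 on day 0 in lbd16-2, against 14.2 on day 4 and 0.698, 1 read, on day 0 in wild type. AT1G31040, a PLATZ factor, had 13.7 on day 4 and 38.0 on day 0 in lbd16-2, against 59.4 on day 4 and 6.28 on day 0 in wild type. AT5G44440, a berberine bridge enzyme-like oxidase, had 11.9 on day 4 and 36.2 on day 0 in lbd16-2, against 43.2 on day 4 and 3.49 on day 0 in wild type. In these 3 genes lbd16-2 had more than wild type on day 0 and less on day 4, on few reads for TCP1.

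The 127 genes under 50 normalised reads in wild type on day 4 had medians of 5 reads in lbd16-2 and 20 reads in wild type at that day. Among these, AT5G41290, a receptor-like kinase-related protein, had 1.78 normalised reads on day 4 and 2.78 on day 0 in lbd16-2, against 42.5 on day 4 and 0 on day 0 in wild type. Its wild-type increase was 20.3-fold against the floor of 3 reads, with an exact lower limit of 16.0. It lies next to AT5G41280 of the same family, another member. The non-coding members comprised 4 long non-coding RNAs, 4 other non-coding RNAs, 3 small nucleolar RNAs and 2 microRNA precursors, MIR166b and MIR779. MIR166b had 6.54 normalised reads on day 4 and 0.928 on day 0 in lbd16-2, against 10.6 on day 4 and 0 on day 0 in wild type, and the interval of its difference of log2 folds included 0.

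The 207 genes lay on all 5 chromosomes, with 59 on chromosome 1 and 24 on chromosome 4. Among them 7 pairs, 14 genes in all, had at most 1 protein-coding gene between them, and 5 pairs had none. Members that overlap another gene on either strand numbered 41 (19.8%, beside 24.8% of the remaining wild-type-only genes and 18.2% of the genes in both lists), and reads in the overlaps could not be assigned with certainty because no source used here gives the use of strand.

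In the authors' deposited table, the p-value of the lbd16-2 change was at least 0.227 and its FDR was 1 for each of the 207 genes. For the wild-type change the authors' deposited table gave an unadjusted p-value under 0.05 for 34 of the 207, and the lowest FDR was 0.0621, for AT2G47780, so that none of the 207 passed an FDR of 0.05 in either genotype.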

How the data were processed

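RNA sequencing of 4 libraries, 1 per genotype and day, was used. The tools named per the submitters' processing notes are STAR, Cufflinks, DESeq, FastQC and Trim Galore, with TAIR10 as the build. No source used here gives their versions or settings, the use of strand or the treatment of multi-mapping reads. The authors deposited 4 tables of increased genes with log2 levels, log2 fold changes, p-value and FDR columns and, for the genes in both lists, a linear ratio of the folds, which was not used. No source used here says how the p-value was computed without replicates. The levels behave as log2(1 + reads/size factor). This was inferred from the values, 100% of which came out as whole reads within 0.001 reads in each library when undone. No count model was run on the recovered reads because no group has a replicate. A log2 fold of levels with this pseudocount of 1 understates the change of genes with few reads.

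Normalised reads, linear folds with exact binomial 95% intervals and differences of log2 folds with a normal interval, after 0.5 was added to each count, were computed with Python 3.11.15, numpy 2.4.6, pandas 2.3.3 and scipy 1.17.1, and plotted with matplotlib 3.10.9. A gene with 0 reads has its fold given against 3 reads in that library. That value leaves out counting error on day 4, so the exact lower limit of the interval is given beside it. The steps were tested on simulated data. Names, products, overlaps and promoters, the 250 bases before each annotated start, are from RefSeq's TAIR10.1, matched by locus identifier, and no coordinate of the tables was used.

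The members, the gene lists and the rules were chosen with earlier results of these data known. The genes named are the 12 with the highest wild-type level at day 4, the 12 whose log2 folds differ most between the genotypes and the 8 with the lowest lbd16-2 fold at or above the members' median level, every member of 14 gene lists, transcription regulators at or above that median, the 3 nearest each limit, up to 4 per product class, and groups of 5 or fewer. Of the genes this names, the text gives those that show a role or a pattern. The values of 1 other listed gene are not reported here. The product classes, the roles, the PYK10 list, the ACGTG motif and the genes given outside the rule were chosen or corrected after their values were seen. The alternatives were other limits, pseudocounts of 0.1 and 5, a minimum of 50 normalised reads, centring on the genes in both lists and thinning to 1 depth.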

Additional observations from a re-analysis of the deposited data

Results flagged for a closer look

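In 10 of the named genes the library labelled day 4 was lower than the library labelled day 0 in lbd16-2 and higher in wild type, so that the genotypes moved in opposite directions. With 1 library per group the difference between the genotypes was not tested. The rule that chose the genes favours such cases. The lbd16-2 log2 folds were -2.04 for TCP1, -1.54 for JAL23, -1.53 for AT5G44440, -1.41 for AT1G31040, -0.69 for KIN1, -0.51 for ESE2, -0.44 for AT5G41290, -0.38 for AT3G05150, -0.21 for AT5G26280 and -0.10 for YUC8. The counting interval of the lbd16-2 fold lay below 1 for TCP1 (0.00232 to 0.880), JAL23 (0.284 to 0.409), KIN1 (0.439 to 0.862), AT5G44440 (0.182 to 0.577), AT1G31040 (0.206 to 0.613) and AT5G26280 (0.789 to 0.945), and included 1 for YUC8 (0.565 to 1.55), AT5G41290 (0.0858 to 4.79), ESE2 (0.324 to 1.44) and AT3G05150 (0.232 to 2.37). ESE2, an AP2-type transcription factor, had 17 reads on day 4 and 16 on day 0 in lbd16-2, against 34 on day 4 and 2 on day 0 in wild type, before division by the size factors. AT3G05150, a sugar-transporter-like protein of the major facilitator family, had 4.76 normalised reads on day 4 and 6.49 on day 0 in lbd16-2, against 46.0 on day 4 and 3.49 on day 0 in wild type.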

How the results depend on the processing

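Of 28 values recomputed under the alternatives, 9 moved less than the limits set for a change and 19 moved more. The counts of members have no direction, and the rule itself forces a positive difference of log2 folds. The medians of the day 4 difference, the day 0 difference and the lbd16-2 log2 fold kept their sign. The number of members, 207, was 55 with a wild-type limit of 4, 58 with an lbd16-2 limit of 1, 335 with an lbd16-2 limit of 2.5, 121 with a pseudocount of 0.1, 107 with a pseudocount of 5 (60 of them among the 207) and 80 with at least 50 normalised reads in wild type at day 4. It was 148 after centring and 187 after thinning, both counted as moves below the limits set for a change. The median difference of log2 folds, 2.33, was 2.99, 3.06, 1.97 and 2.99 under the first 4 of these alternatives in that order. Each median given here was taken over the genes that met the rule under that alternative, not over the same 207. The median day 4 difference, lbd16-2 minus wild type, -1.36, was -0.96 with a pseudocount of 5 and -1.02 with at least 50 normalised reads. The median day 0 difference, 0.95, was 1.28 with a pseudocount of 0.1, 0.47 with 5, 1.23 with at least 50 normalised reads and 0.73 after centring. The median lbd16-2 log2 fold, 1.48, was 1.83 with a pseudocount of 0.1, 0.68 with 5 and 1.76 after centring. The cause of these shifts was not tested. No paired analysis was possible because each group has 1 library, and for the same reason no library could be left out. Depth was low for many members, of which 127 were under 50 normalised reads in wild type at day 4.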
